A study of Rattus norvegicus with 12 samples.

Results

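The 10 genes described here mark macrophages, the tissue-resident immune cells of the pancreatic islet. They are Cd68, Mrc1, C1qa, C1qb, C1qc, Csf1r, Aif1, Tyrobp, Ptprc and Cd14, chosen by name, and all 10 were found among the 13733 protein-coding genes of the deposited table. They were measured by total RNA sequencing in dispersed islet cells that had been transfected for 72 h. The islets came from male Wistar rats aged 3 months. In the anti-mt-tRF-LeuTAA group, 6 cultures received 30 pmol of a single-stranded antisense oligonucleotide against mt-tRF-LeuTAA, a fragment cut from the mitochondrially encoded leucine tRNA. In the anti-control group, 6 cultures received the same amount of a scrambled oligonucleotide. Both groups were of the same strain, sex and age and went through the same isolation by collagenase, handpicking and dispersion. Each replicate number stands for the islets of 1 rat, so 6 rats gave 12 libraries. The cells were not sorted, so each library holds RNA of every cell type of the culture. The fragment itself is a small RNA and was not measured in these libraries, so the extent of its silencing was not analysed here.

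Islet macrophages lie along the vessels and next to the endocrine cells. They take up granule contents and cell debris, present antigen, and release factors that act on beta cells. They depend on signals through Csf1r, the receptor for the ligands Csf1 and Il34. Their identity genes are switched on by the transcription factor PU.1 (gene Spi1), which binds DNA at a GGAA core. C1qa, C1qb and C1qc encode the chains of C1q, which starts the classical complement pathway and tags debris for uptake. Tyrobp is a signalling adaptor of receptors such as Trem2, and Aif1 is a calcium- and actin-binding protein known as IBA1. Ptprc encodes CD45, the phosphatase on the surface of all leukocytes, and Cd14 is the co-receptor that hands lipopolysaccharide to Toll-like receptor 4. Cd68 is a glycoprotein of lysosomes and endosomes, and Mrc1 is the mannose receptor, which takes up glycoproteins. Mrc1 is also made by some endothelial cells.

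The promoters of 4 members are shown because C1qa and C1qb moved together across the libraries, whereas Cd68 and Mrc1 followed another pattern. Each run holds the 250 bases before and the 50 bases after the start of the gene, in the sense of the gene, taken from RefSeq on the build GRCr8. Capitals mark GGAAGT, a core bound by PU.1 and other ETS factors, or ACTTCC, the same letters on the other strand. The coordinates are chr5:154419884-154420183 on the minus strand for C1qa, chr5:154407778-154408077 on the minus strand for C1qb, chr10:54882392-54882691 on the minus strand for Cd68 and chr17:82157475-82157774 on the plus strand for Mrc1.
C1qa: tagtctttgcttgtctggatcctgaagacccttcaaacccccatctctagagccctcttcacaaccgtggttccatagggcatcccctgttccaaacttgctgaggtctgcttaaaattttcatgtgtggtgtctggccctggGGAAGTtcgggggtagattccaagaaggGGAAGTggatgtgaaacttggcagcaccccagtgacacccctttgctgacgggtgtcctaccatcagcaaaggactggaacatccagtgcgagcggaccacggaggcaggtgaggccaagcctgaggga
C1qb: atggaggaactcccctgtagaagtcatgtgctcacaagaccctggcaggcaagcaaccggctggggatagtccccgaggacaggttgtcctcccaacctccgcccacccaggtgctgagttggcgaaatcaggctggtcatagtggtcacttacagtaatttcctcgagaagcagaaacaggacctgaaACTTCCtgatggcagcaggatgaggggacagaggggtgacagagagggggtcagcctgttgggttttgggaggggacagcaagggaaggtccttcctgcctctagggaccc
Cd68: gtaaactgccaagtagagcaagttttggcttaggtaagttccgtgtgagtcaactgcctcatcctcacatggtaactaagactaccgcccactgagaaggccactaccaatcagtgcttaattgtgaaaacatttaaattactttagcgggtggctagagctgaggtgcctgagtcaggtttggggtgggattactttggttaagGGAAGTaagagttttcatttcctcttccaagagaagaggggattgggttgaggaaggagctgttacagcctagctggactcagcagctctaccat
Mrc1: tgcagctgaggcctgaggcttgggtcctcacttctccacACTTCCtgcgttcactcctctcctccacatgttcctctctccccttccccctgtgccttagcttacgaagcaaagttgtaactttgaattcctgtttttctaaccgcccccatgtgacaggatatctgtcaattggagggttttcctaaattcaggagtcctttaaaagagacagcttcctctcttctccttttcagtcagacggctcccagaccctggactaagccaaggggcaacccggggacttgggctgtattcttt
The C1qa promoter held 2 such matches and each of the other 3 held 1. Of the 10 members, 7 had a promoter sequence, and 5 of these 7 contained a match (C1qa, C1qb, Cd68, Mrc1 and Ptprc). Of all 33469 promoters of this length, 22.6% did. Cd14 and Csf1r had no match, which says only that these letters were not in the window.

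The libraries held 16.4 to 20.3 M (mega) reads on the listed genes in the anti-mt-tRF-LeuTAA group and 17.6 to 23.4 M in the anti-control group. The deposited values are log2 CPM, that is, reads scaled to the library on a log2 scale after the addition of a prior count of 1. At this depth 1 read was worth 0.0450 to 0.0594 CPM. Genes were compared with limma over all 13733 genes with the rat as a block, and a gene was called changed at a Benjamini-Hochberg adjusted p of at most 0.05. Of all genes, 17.6% were called higher and 17.7% lower in anti-mt-tRF-LeuTAA cultures, 35.3% in all. Without the block 10.9% were called higher and 4.65% lower. The share of higher calls among all calls was 49.8% with the block, 70.1% without it and 67.5% when values were scaled by library size alone.

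Of the 10 members, 2 were called higher (Cd68 and Mrc1), 1 was called lower (Aif1) and 7 did not pass. These counts lie close to the shares of all genes, so they say nothing particular about the list. Both risen members were at least 4-fold higher, a size that 4.12% of all genes reached, while 6.6% reached at least 2-fold. The median log2 fold change was -0.24 for the members and -0.04 for all genes. In these bulk samples, fewer cells of a type and less RNA per cell cannot be told apart.

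The C1q genes lie side by side on chromosome 5 of Rnor_6.0 (minus strand), C1qa at 155261250 to 155264143, C1qc at 155255005 to 155258392 and C1qb at 155246447 to 155252003. C1qa, the A chain, had 2.00, 2.82 and 4.46 log2 CPM (lowest, median and highest) in anti-mt-tRF-LeuTAA cultures, against 2.42, 2.93 and 5.25 in anti-control cultures. The groups covered nearly the same range, and C1qa was lower in 4 of 6 rats after anti-mt-tRF-LeuTAA. Its log2 fold change was -0.28 (95% interval -0.75 to 0.18; SE 0.21, adjusted p = 0.313). C1qb, the B chain, had 0.20, 2.21 and 3.65 log2 CPM in anti-mt-tRF-LeuTAA cultures, against 1.19, 2.10 and 4.33 in anti-control cultures, a log2 fold change of -0.37 (-1.02 to 0.28; adjusted p = 0.349). C1qc, the C chain, had 0.85, 2.77 and 4.08 log2 CPM in anti-mt-tRF-LeuTAA cultures, against 1.92, 2.30 and 4.56 in anti-control cultures, a log2 fold change of -0.37 (-0.87 to 0.14; adjusted p = 0.235). All 3 chains were lower in rats 3, 4, 5 and 6 and higher in rats 1 and 2. Without rat 1, C1qa and C1qb were called lower (log2 fold change -0.48, adjusted p = 0.0448, and -0.66, adjusted p = 0.0412).

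Csf1r (chromosome 18, 56414488 to 56458300, plus strand) had 0.76, 2.34 and 3.38 log2 CPM in anti-mt-tRF-LeuTAA cultures, against 0.58, 2.23 and 4.41 in anti-control cultures. The medians differed little and the groups overlapped over nearly their whole range, with a log2 fold change of -0.21 (-0.61 to 0.20; adjusted p = 0.404). Tyrobp (chromosome 1, 88875375 to 88879303, plus strand) had -1.20, 0.76 and 2.28 log2 CPM in anti-mt-tRF-LeuTAA cultures, against 0.06, 1.06 and 3.02 in anti-control cultures. It was lower in 4 of 6 rats, by 1.94 on the log2 scale in rat 3, where its library held 7 reads after anti-mt-tRF-LeuTAA and 28 in anti-control. Its log2 fold change of -0.55 (-1.22 to 0.13) did not pass (adjusted p = 0.186).

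Aif1 (chromosome 20, 5161333 to 5166448, minus strand) fell. It had -2.22, -0.51 and 0.86 log2 CPM in anti-mt-tRF-LeuTAA cultures, against -0.59, 0.18 and 1.80 in anti-control cultures. The groups overlapped, yet within rats Aif1 was lower in 6 of 6 pairs. The log2 fold change was -0.95 (-1.62 to -0.28; SE 0.30, adjusted p = 0.0346), that is 1.93-fold lower. Its size depended on offset and scaling, with a log2 fold change of -0.44 for log2(CPM + 1) and -1.99 for quantile normalization. The counts behind it were small, 3 to 36 reads in anti-mt-tRF-LeuTAA libraries and 13 to 76 in anti-control libraries. The call was lost without the block (adjusted p = 0.241), when values were scaled by library size alone (0.0523), and without rat 3 (0.0673, log2 fold change -0.67), rat 5 (0.0855) or rat 6 (0.0658).

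Ptprc (chromosome 13, 55061562 to 55173692, minus strand), which is present on every leukocyte, had 2.00, 3.41 and 4.01 log2 CPM in anti-mt-tRF-LeuTAA cultures, against 1.97, 3.21 and 3.92 in anti-control cultures. It was higher in 3 rats and lower in the other 3, with a log2 fold change of -0.05 (-0.43 to 0.33; adjusted p = 0.844). Cd14 (chromosome 18, 29560365 to 29562153, minus strand) had 1.19, 2.16 and 3.58 log2 CPM in anti-mt-tRF-LeuTAA cultures, against 0.73, 1.73 and 3.33 in anti-control cultures. Cd14 was higher in 5 of 6 rats and lower in rat 1, with a log2 fold change of 0.35 (-0.30 to 1.01; adjusted p = 0.373). The intervals of the 7 members that did not pass still allow changes of the sizes given, so equal levels are not shown.

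**Figure D1:**
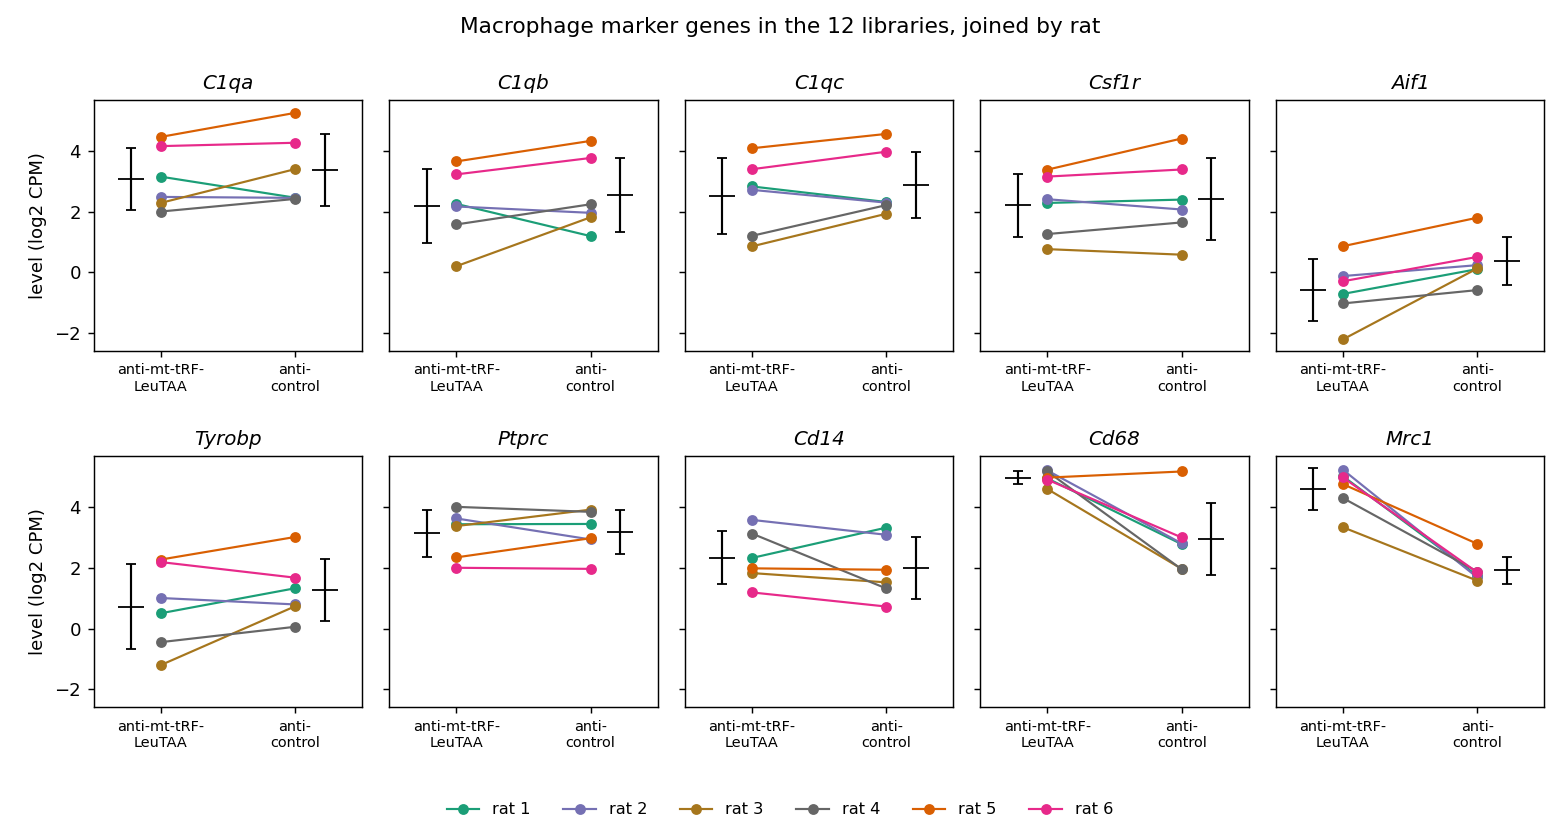
Level of each member (log2 CPM, vertical axis) in the 12 libraries, with anti-mt-tRF-LeuTAA on the left and anti-control on the right of each panel, 1 line per rat, and group mean ± SD (n = 6) as black bars. The lines of the C1q genes, Csf1r, Aif1 and Tyrobp are stacked by rat with rat 5 on top, whereas those of Mrc1 drop toward anti-control in 6 of 6 rats and those of Cd68 in 5 of 6.

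Mrc1 (chromosome 17, 81352700 to 81433743, plus strand) rose in every rat. It had 3.34, 4.87 and 5.24 log2 CPM in anti-mt-tRF-LeuTAA cultures, against 1.58, 1.80 and 2.79 in anti-control cultures. Its groups did not overlap, which held for 7.92% of all genes in this direction and for no other member, nor did any member lie wholly lower, as 2.27% of all genes did. The mean was 4.61 ± 0.70 in anti-mt-tRF-LeuTAA cultures and 1.92 ± 0.44 in anti-control cultures (SD, n = 6 each), with a log2 fold change of 2.68 (2.16 to 3.21; SE 0.23, adjusted p = 3.15e-05), that is 6.43-fold. In reads, Mrc1 had 184 to 653 per anti-mt-tRF-LeuTAA library and 51 to 153 per anti-control library. The smallest rise was in rat 3 (1.76 on the log2 scale) and the largest in rat 2 (3.55).

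Cd68 (chromosome 10, 56268720 to 56270640, minus strand) rose to 4.60, 4.96 and 5.21 log2 CPM in anti-mt-tRF-LeuTAA cultures, against 1.95, 2.79 and 5.18 in anti-control cultures. The anti-mt-tRF-LeuTAA values were almost equal in all rats (4.97 ± 0.22, SD, n = 6), whereas those of anti-control spread widely (2.95 ± 1.18, SD, n = 6). The overlap came from rat 5 alone, whose anti-control library had 5.18 log2 CPM, above the 3.00 of the next, and whose pair differed by -0.20. In the other 5 rats Cd68 was higher by 1.91 to 3.23 on the log2 scale. The log2 fold change was 2.02 (1.22 to 2.82; SE 0.36, adjusted p = 0.0022), that is 4.06-fold, and 2.47 without rat 5 (adjusted p = 4.49e-05). Without the block both genes passed as well (adjusted p = 0.00735 for Cd68 and 4.25e-05 for Mrc1).

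**Figure D2:**
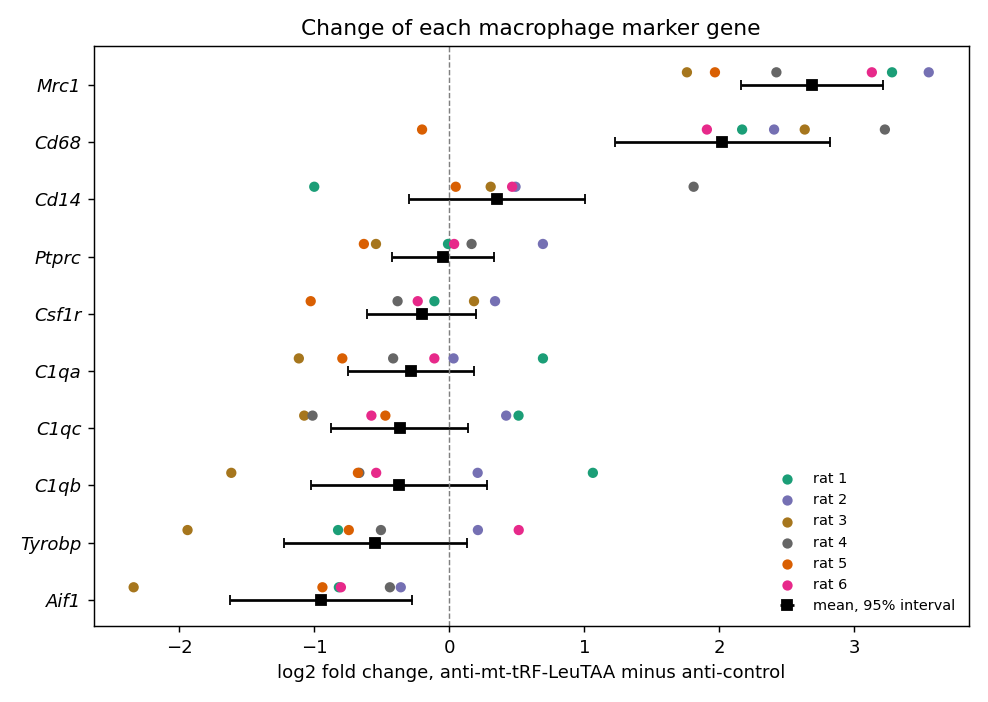
Log2 fold change of each member, anti-mt-tRF-LeuTAA minus anti-control (horizontal axis), as the mean with its 95% interval (black squares and bars) and as the difference within each of the 6 rats (coloured points). Mrc1 (2.68) and Cd68 (2.02) stand to the right of 0, Aif1 (-0.95) to the left, and the intervals of the other 7 members include 0.

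Cd68 and Mrc1 are set beside the other 8 members here because they rose, so the values that follow describe that choice and are given without a p-value. The log2 change of Mrc1 exceeded that of each of the 8 in 6 of 6 rats, on average by 2.33 (Cd14) to 3.63 (Aif1). The log2 change of Cd68 exceeded that of 7 of them in 6 of 6 rats, on average by 2.07 (Ptprc) to 2.97 (Aif1), and that of Cd14 in 5 of 6 rats, by 1.67.

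The summed levels of the members are given for the whole list and for parts of it. All 10 together took 58.0 to 136 CPM in anti-mt-tRF-LeuTAA libraries and 43.5 to 169 CPM in anti-control libraries, with a higher sum in 5 of 6 rats. Cd68 and Mrc1 alone took 58.0 ± 13.3 CPM in anti-mt-tRF-LeuTAA libraries and 14.8 ± 13.9 CPM in anti-control libraries (SD, n = 6 each), higher in 6 of 6 rats. The 8 other members took 48.0 ± 18.3 CPM in anti-mt-tRF-LeuTAA libraries and 58.3 ± 35.3 CPM in anti-control libraries, higher in 3 of 6 rats. The 3 C1q genes took 23.8 ± 17.3 CPM in anti-mt-tRF-LeuTAA libraries and 31.5 ± 28.0 CPM in anti-control libraries, higher in 2 of 6 rats. The split into Cd68 and Mrc1 and the other 8 follows their own changes, and no test was made on these sums.

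A shared order of the rats was seen for 6 of the members. C1qa, C1qb, C1qc, Csf1r, Aif1 and Tyrobp were all highest in rat 5, in the anti-mt-tRF-LeuTAA libraries as in the anti-control libraries. Rat 6 came next in the anti-control libraries for all 6 genes, and in the anti-mt-tRF-LeuTAA libraries for 5 of them, with rat 2 next for Aif1. Averaged over both libraries of a rat, C1qa ran from 2.21 log2 CPM in rat 4 to 4.86 in rat 5. Csf1r ran from 0.67 in rat 3 to 3.89 in rat 5, and the distance between the highest and the lowest rat was 2.37 to 3.22 on the log2 scale for the 6 genes. The distance was of like size for Cd14 (2.38) and was 1.94 for Ptprc.

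Ptprc and Cd14 did not follow this order. Averaged over both libraries, Ptprc was highest in rat 4 (3.93 log2 CPM) and lowest in rat 6 (1.99), and Cd14 was highest in rat 2 (3.34) and lowest in rat 6 (0.96). For Cd68 and Mrc1, rat 2 was highest after anti-mt-tRF-LeuTAA, with rat 5 in the third place for Cd68 and in the fourth for Mrc1, whereas rat 5 was highest for both in anti-control. No test of the rats was made, since each had only 1 library per group. Over all genes, rats 5 and 6 were the closest pair after anti-mt-tRF-LeuTAA (chi-square per degree of freedom 22.6, smaller meaning more alike). In anti-control the closest pairs were rats 1 and 2 (19.1), 3 and 4 (29.9) and 5 and 6 (39.6). After anti-mt-tRF-LeuTAA, rats 3 and 4 were at 34.9, but rats 1 and 2 were at 81.6, farther apart than rats 1 and 4 (55.4). The labels name no preparation, and a grouping of the rats was not tested.

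**Figure D3:**
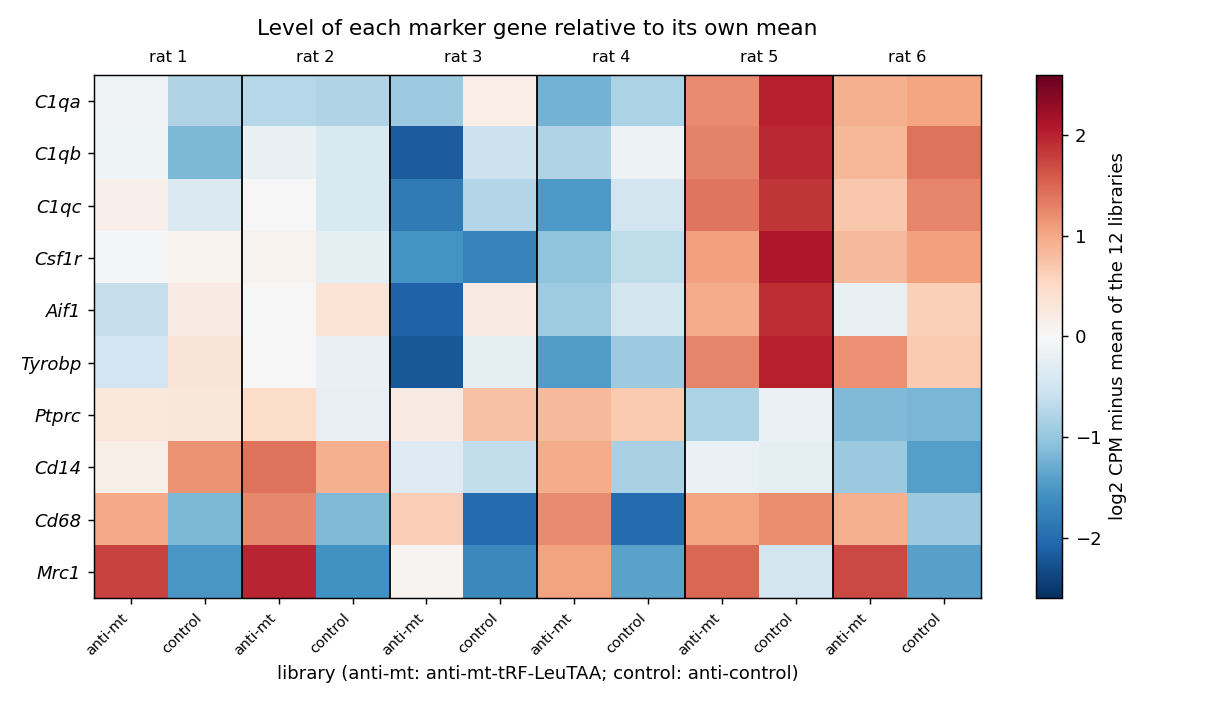
Level of each member (rows) in each library (columns, anti-mt-tRF-LeuTAA left of anti-control within each rat), as log2 CPM minus the mean of that gene over the 12 libraries. Rats 5 and 6 are red for the C1q genes, Csf1r and Tyrobp in both columns, whereas Mrc1 turns from red or near 0 to blue between the columns of each rat.

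The genes whose pattern over the 12 libraries was most like that of the list were sought by Pearson correlation with the mean z score of the 10 members. All values come from the same libraries and share their depth, so r is given as a description. The closest were Chst14, a sulfotransferase of dermatan sulfate (r = 0.95), the cation channel Trpv2 (0.94), the mechanosensitive channel Piezo2 (0.94), Gask1b (0.92) and the integrin subunit Itga4 (0.91). Among the members, r with the mean that they enter was 0.76 to 0.89 for the C1q genes, Csf1r, Aif1 and Tyrobp. It was 0.56 for Cd68, 0.42 for Mrc1, 0.04 for Cd14 and -0.47 for Ptprc, so the mean mostly carries the 6 genes that shared a rat order. The 5 closest genes did not pass between the groups (adjusted p = 0.0742 to 0.838).

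The genomic neighbours of Cd68 and Mrc1 were then examined, a step chosen after the values had been seen. A transcript that continues past the end of its gene into the next one on the strand is counted for that next gene. Cd68 starts 0.617 kb downstream of the end of Eif4a1, an RNA helicase of translation initiation. Eif4a1 had 7646 to 9970 reads in anti-mt-tRF-LeuTAA libraries and 5769 to 10048 in anti-control libraries (log2 fold change 0.06, adjusted p = 0.483). Mpdu1, which follows 1.51 kb after Cd68, had 631 to 910 reads in anti-mt-tRF-LeuTAA libraries and 656 to 998 in anti-control libraries (log2 fold change -0.08, adjusted p = 0.285). Cd68 rose, and the genes before and after it did not pass. Whether transcripts of Eif4a1 continued into Cd68 was not tested.

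Mrc1 lies in a row of 4 genes on the plus strand. The upstream-most of them, Stam, which encodes an adaptor of endosomal sorting, ends 96.9 kb before Mrc1 and had 1010 to 1283 reads in anti-mt-tRF-LeuTAA libraries and 813 to 1371 in anti-control libraries (adjusted p = 0.262). Tmem236, a transmembrane protein gene 25.1 kb after Stam and 10.6 kb before Mrc1, had 22 to 79 reads in anti-mt-tRF-LeuTAA libraries and 0 to 3 in anti-control libraries (adjusted p = 5.31e-05). Slc39a12, a zinc transporter gene 22.2 kb after Mrc1, had 22 to 100 reads in anti-mt-tRF-LeuTAA libraries and 0 to 2 in anti-control libraries (adjusted p = 9.62e-06). Mrc1 was thus called higher, as were the genes on either side of it. The part of RNA from upstream genes in the rise of Cd68 and Mrc1 was not tested.

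Other members also lay downstream of listed genes and were not called higher. Csf1r starts 8.11 kb downstream of Pdgfrb, a growth factor receptor gene with 1342 to 4447 reads in anti-mt-tRF-LeuTAA libraries and 1314 to 6802 in anti-control libraries, and Csf1r did not pass. C1qc follows C1qa by 2.86 kb and C1qb follows C1qc by 3.00 kb. Epha8 ends 31.2 kb before C1qa and had only 93 to 149 reads in anti-mt-tRF-LeuTAA libraries and 59 to 171 in anti-control libraries. Ndufa2 ends 23.5 kb before Cd14 and had 5.52 log2 CPM in anti-mt-tRF-LeuTAA cultures and 5.68 in anti-control cultures. Aif1, Tyrobp and Ptprc had their nearest listed upstream gene on the same strand at 266 to 315 kb.

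**Figure D4:**
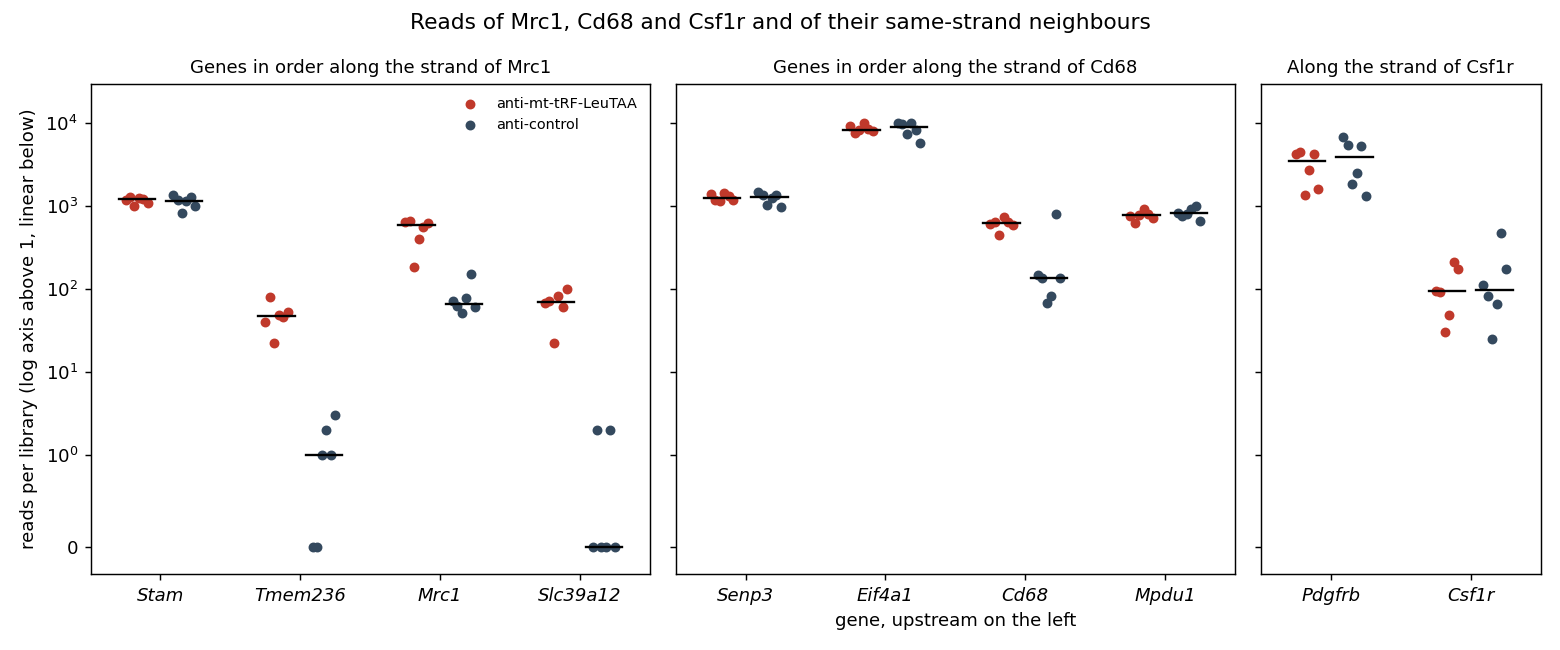
Reads per library (vertical axis, logarithmic above 1) of the genes along the strand of Mrc1, Cd68 and Csf1r, with anti-mt-tRF-LeuTAA (red) left of anti-control (dark blue) and black lines at the median of the 6 libraries. Tmem236, Mrc1 and Slc39a12 are separated between the groups, Cd68 is separated apart from rat 5, and Stam, Eif4a1, Mpdu1, Pdgfrb and Csf1r overlap.

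Further genes of the pathways and of the cell type were described with 9 lists, which together held 181 measured genes besides the members. Of these, 27 (14.9%) were called higher and 21 (11.6%) lower, both under the shares of all genes (17.6% and 17.7%). The counts of each list below are to be read beside these shares. The levels of the 181 genes differed widely. Spi1 had -0.10 log2 CPM in anti-mt-tRF-LeuTAA cultures and -0.02 in anti-control cultures, and Serping1 had 10.3 and 10.8. Which cells of the culture made the RNA of these genes was not tested. Of the 18 that were called higher by at least 2-fold, 16 (88.9%) had an expressed neighbour upstream on their strand. Such a neighbour had a mean of at least 0 log2 CPM in anti-control and started upstream of the gene. It ended within 50 kb of the start of the gene, before or after it. This share was 74.1% of all 27 called higher, 38.1% of the 21 called lower and 32.3% of the 133 not called. Over all genes it was 79.7% of the 906 called higher by at least 2-fold and 61.4% of the 2412 called higher. It was 34.6% of those called lower and 37.2% of those not called, so the macrophage-related genes followed the whole table. Distances given below are mostly those of risen genes with a near neighbour. Named genes also rose with none within 50 kb, among them Cebpb (145 kb), Cxcl1 (74.7 kb) and Il23a (68.2 kb). Others fell with one, among them Ifi30 (1.59 kb) and Lrp1 (34.7 kb).

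**Figure D5:**
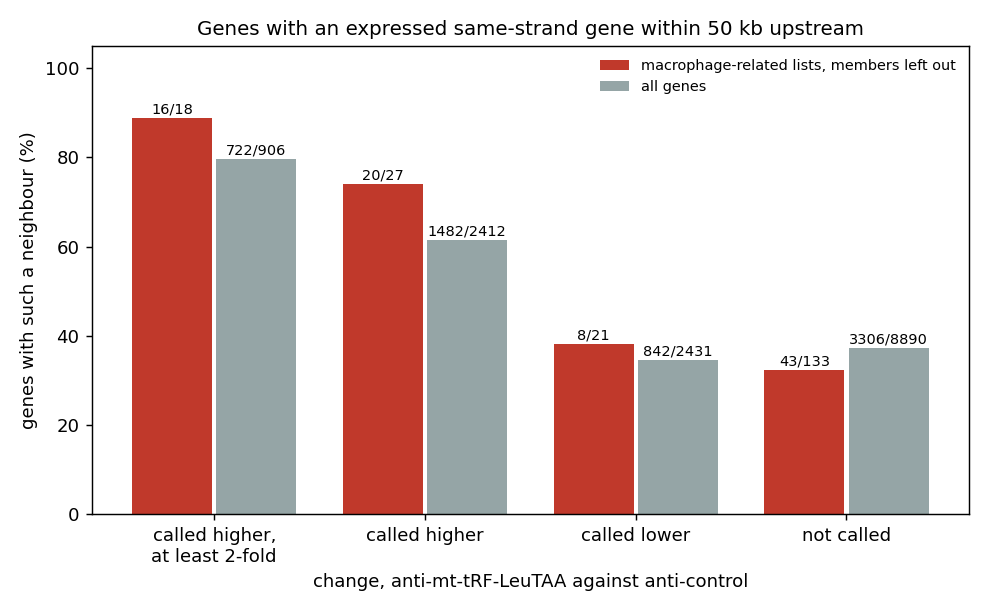
Share of genes (%, vertical axis) with an expressed upstream gene on the same strand that ends within 50 kb of their start. Shares are given by the change of the gene, for the macrophage-related lists without the members (red) and for all genes (grey). Numbers on the bars are genes with such a neighbour of all genes in the class, and the highest share in both sets is that of genes called higher by at least 2-fold (88.9% and 79.7%).

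Around Csf1r, 12 of 13 ligand and transcription factor genes were measured, and 1 was called higher. Csf1, the main ligand, had 5.55 log2 CPM in anti-mt-tRF-LeuTAA cultures and 5.63 in anti-control cultures (adjusted p = 0.662), and the other ligand Il34 had 1.51 in anti-mt-tRF-LeuTAA cultures and 0.57 in anti-control cultures (0.0806). Spi1, which encodes PU.1, had -0.10 log2 CPM in anti-mt-tRF-LeuTAA cultures and -0.02 in anti-control cultures (0.856). Cebpb, a transcription factor of inflammatory and differentiating myeloid cells, rose (log2 fold change 0.97, adjusted p = 0.0153) in 5 of 6 rats. The call was lost without the block (adjusted p = 0.225).

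Of 26 measured complement genes, 4 were called higher (C6, C9, Cfp and C4bpb) and 5 lower (C1r, C1s, C2, Cd59 and Serping1). C1r and C1s encode the proteases that sit on C1q, and C1s fell by 0.62 on the log2 scale in 6 of 6 rats (adjusted p = 0.00227). Serping1, the inhibitor of these proteases, fell by 0.49 on the log2 scale (adjusted p = 0.003). Cfp, properdin, which stabilises the alternative pathway convertase, rose by 0.95 on the log2 scale in 6 of 6 rats (adjusted p = 0.000142) and lies 6.30 kb downstream of Elk1. The calls of C1s and Serping1 were lost without the block (adjusted p = 0.416 and 0.424), whereas Cfp (1.97e-05) was the 1 higher call left in this list.

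Another list held 21 measured genes for receptors that couple to Tyrobp, for related myeloid receptors and for the signalling below them. Of these, 6 were called higher (Plcg2, Card9, Fes, Lat2, Treml2 and Btk) and 1 lower. The lower gene, Sirpa, encodes an inhibitory receptor that does not itself couple to Tyrobp. All 6 of the risen genes had an expressed gene within 50 kb upstream on their strand, as had 61.4% of all genes called higher. Plcg2, a phospholipase below these receptors, had 6.35 ± 0.35 log2 CPM in anti-mt-tRF-LeuTAA cultures and 3.06 ± 0.26 in anti-control cultures (SD, n = 6 each), which is 9.80-fold higher (adjusted p = 7.78e-07), and it lies 44.5 kb downstream of Cmip. Card9, an adaptor of innate receptors, rose 3.58-fold (adjusted p = 0.000263) 2.69 kb downstream of Snapc4. Fes, a tyrosine kinase of myeloid cells, rose 3.55-fold (adjusted p = 5.69e-05) 1.21 kb downstream of Furin. The receptor Trem2 had -0.32 log2 CPM in anti-mt-tRF-LeuTAA cultures and 0.20 in anti-control cultures (adjusted p = 0.13), and the kinase Syk had 2.07 in anti-mt-tRF-LeuTAA cultures and 2.11 in anti-control cultures (0.848).

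Beside Cd14, 19 genes of Toll-like receptors and their adaptors were measured, of which 2 were called higher (Ticam2 and Irak2) and 4 lower (Tlr3, Myd88, Irak1 and Irak4). Quantile normalization called 11 lower and scaling by library size alone 2. Ticam2, the adaptor that brings Toll-like receptor 4 to its endosomal pathway, rose 6.11-fold in 6 of 6 rats (adjusted p = 7.63e-06), 6.94 kb downstream of Tmed7. Irak2, a kinase-like adaptor, rose 1.66-fold (adjusted p = 0.000749). Myd88, the adaptor that most of these receptors share, fell by 0.28 on the log2 scale in 6 of 6 rats (adjusted p = 0.00466). The calls of Irak2 (0.21) and Myd88 (0.163) were lost without the block, which left 1 higher and 1 lower call in this list. Tlr4 itself had 1.17 log2 CPM in anti-mt-tRF-LeuTAA cultures and 1.59 in anti-control cultures (0.138).

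Scavenger and engulfment receptors share with Mrc1 and Cd68 the uptake of particles and glycoproteins. Their list also held Gas6 and Pros1, which are secreted ligands, and had more lower than higher calls. Of 22 measured, 2 (9.09%) were called higher (Stab1 and Scarf1) and 7 (31.8%) lower (Scarb2, Lrp1, Mertk, Axl, Gas6, Pros1 and Olr1). Over all genes these shares were 17.6% and 17.7%. The median log2 fold change of the list was -0.43. Without the block 2 lower calls were left and both higher calls were lost, while library size alone gave 7 lower calls and quantile normalization 13. Lrp1, a large endocytic receptor, had 7.30 ± 0.82 log2 CPM in anti-mt-tRF-LeuTAA cultures and 7.91 ± 0.76 in anti-control cultures (SD, n = 6 each), and fell in 6 of 6 rats (adjusted p = 0.000294). Scarb2, a receptor of lysosomal membranes, fell by 0.43 on the log2 scale (adjusted p = 0.000382). Stab1, a scavenger receptor of macrophages and of some endothelium, rose 2.12-fold in 6 of 6 rats (adjusted p = 0.000193) and lies 4.05 kb downstream of Nisch. The paralogue Mrc2 had 4.69 log2 CPM in anti-mt-tRF-LeuTAA cultures and 4.59 in anti-control cultures (0.661), and Cd163, a haemoglobin scavenger receptor that often goes with Mrc1, had 0.86 in anti-mt-tRF-LeuTAA cultures and 0.71 in anti-control cultures (0.794). Of the named calls, that of Scarb2 was kept without the block (adjusted p = 0.0121), whereas those of Lrp1 (0.369) and Stab1 (0.135) were lost.

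Of 23 further macrophage markers that were measured of 32 listed, 2 were called higher (Emilin2 and Ctss) and 1 lower (Adgre1). Adgre1, which encodes the antigen F4/80 in mice, fell by 0.79 on the log2 scale in 5 of 6 rats (adjusted p = 0.0259, and 0.674 without the block). Ctss, a lysosomal protease of antigen presentation, rose by 0.63 on the log2 scale in 5 of 6 rats (adjusted p = 0.0459, and 0.385 without the block). Emilin2, an extracellular matrix protein, rose 3.03-fold in 6 of 6 rats (adjusted p = 0.000285) and lies 23.4 kb downstream of Smchd1. Quantile normalization called 7 of the 23 lower and library size alone gave 0 lower calls. At an unadjusted p under 0.05, limma with the block had 3 lower and 3 higher, and limma-voom on the recovered reads called 1 lower.

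Of 28 measured pan-leukocyte genes, the group to which Ptprc belongs, 6 (21.4%, against 17.6% of all genes) were called higher (Hcls1, Ptpn22, Fermt3, Lcp1, Cytip and Ptprcap). Lower calls numbered 0 with limma, 0 at an unadjusted p under 0.05 and 0 with limma-voom, but 4 with quantile normalization, and without the block 3 higher calls were left. Hcls1, a cortactin-like protein of blood cells, rose 4.08-fold (adjusted p = 0.000159) 2.18 kb downstream of Golgb1. Fermt3, an integrin activator of blood cells, rose 2.94-fold (adjusted p = 0.000493) 1.85 kb downstream of Stip1. Ptpn22, a phosphatase of lymphocytes, rose by 4.20 on the log2 scale (adjusted p = 0.0023) 36.4 kb downstream of Ap4b1, from as few as 0 reads in an anti-control library, so the size depends on the prior count. The integrin subunit Itgb2, which all leukocytes carry, had 2.31 log2 CPM in anti-mt-tRF-LeuTAA cultures and 2.69 in anti-control cultures (0.293).

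Among 8 measured genes of MHC class II presentation, the thiol reductase Ifi30 fell by 0.33 on the log2 scale (adjusted p = 0.00899, and 0.135 without the block) and the other 7 did not pass. Cd74, the invariant chain, had 4.51 log2 CPM in anti-mt-tRF-LeuTAA cultures and 4.67 in anti-control cultures (0.577). Of 25 measured cytokine and chemokine genes, 4 were called higher (Cxcl1, Osm, Il23a and Cxcl2) and 2 lower (Tgfb1 and Ccl2). Cxcl1, a chemokine that draws neutrophils, had 5.07 ± 2.53 log2 CPM in anti-mt-tRF-LeuTAA cultures and 2.25 ± 2.89 in anti-control cultures (SD, n = 6 each) and was higher in 6 of 6 rats (adjusted p = 4.25e-05). The rats differed widely, and the call was lost without the block (0.214). Osm, a cytokine of myeloid cells, rose by 2.29 on the log2 scale (adjusted p = 0.000171) and Il23a by 2.16 (adjusted p = 0.000484), both in 6 of 6 rats, and 2 higher calls of this list were left without the block.

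Markers of other cell types of the culture were counted as well. Of 15 measured endothelial markers, 4 (26.7%, against 17.6% of all genes) were called higher (Kdr, Flt1, Esam and Stab1) with a median log2 fold change of 0.32. Kdr, a receptor of vascular endothelial growth factor, rose by 0.57 and Esam by 0.87 on the log2 scale, both in 6 of 6 rats (adjusted p = 0.00455 and 0.0164), and both calls were lost without the block (0.758 and 0.335), like those of Flt1 (0.896) and Stab1 (0.135). The endothelial list summed to 123 to 1057 CPM in anti-mt-tRF-LeuTAA libraries and 74.9 to 1080 CPM in anti-control libraries, higher in 4 of 6 rats. Its part in the change of Mrc1 and Stab1 was not tested. No measured marker of this list was without reads in all libraries.

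Lymphocyte and granulocyte markers were thinly covered. Of 21 T and NK cell markers 7 were measured, and 1 rose, the adaptor Lat (2.39 on the log2 scale, adjusted p = 2.32e-05), which lies 0.439 kb downstream of Spns1. Of 12 B cell and plasma cell markers 6 were measured and 2 (33.3%, against 17.6% of all genes) rose, Cd79b (3.70 on the log2 scale, adjusted p = 0.003) and Cd22 (1.92, adjusted p = 0.0163). Of 23 neutrophil and mast cell markers 4 were measured. Hdc, the histidine decarboxylase that makes histamine, rose by 4.40 on the log2 scale (adjusted p = 0.000129) and Ngp, a neutrophil granule protein, by 1.93 (0.00124), whereas the stem cell factor receptor Kit fell by 0.33 (0.0135). The log2 fold changes of Cd79b, Cd22, Ngp and Hdc rest on anti-control libraries with few reads and depend on the prior count. Cd22 went as low as 0.66 on the log2 scale under the alternatives, and its call was lost in 3 of 14 of them, with adjusted p = 0.102 without the block. The call of Kit was lost without the block too (0.459). Of 11 dendritic cell markers 7 were measured and 0 passed, with 0 at an unadjusted p under 0.05 and 0 with limma-voom. The T and NK cell list summed to 35.0 to 87.8 CPM in anti-mt-tRF-LeuTAA libraries and 27.3 to 68.3 in anti-control libraries, and the B cell list to 28.7 to 44.6 CPM in anti-mt-tRF-LeuTAA libraries and 27.3 to 42.9 in anti-control libraries. The neutrophil and mast cell list summed to 123 to 210 CPM in anti-mt-tRF-LeuTAA libraries and 140 to 253 in anti-control libraries. Thy1, Blnk and Kit were by far the most abundant genes of these lists, so the sums are not read as amounts of lymphocytes or granulocytes. Thy1, also listed for fibroblasts, had 5.26 log2 CPM in anti-mt-tRF-LeuTAA cultures and 5.17 in anti-control cultures. Blnk had 4.64 and 4.82, and Kit had 7.11 and 7.44.

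The remaining cells of the culture served as a background for these levels. Endocrine genes, which define the islet, summed to 97645 to 194834 CPM in anti-mt-tRF-LeuTAA libraries and 91018 to 215723 CPM in anti-control libraries, and 2 of 17 fell, the transcription factor Pdx1 (-0.68, adjusted p = 0.00126) and the prohormone convertase Pcsk2 (-0.39, adjusted p = 0.0127). Of 13 fibroblast and stellate markers 2 fell, the collagen gene Col1a1 (-0.82, adjusted p = 0.00628) and Dcn (-0.70, adjusted p = 0.0444). Of 12 acinar and ductal markers 2 rose, the digestive enzymes Cel (3.23, adjusted p = 1.75e-05) and Ctrc (2.57, adjusted p = 0.000792), each 2.73 kb downstream of an expressed gene, and the keratin Krt7 fell (-0.36, adjusted p = 0.00213). Among 11 cell cycle genes Plk1 rose (1.09, adjusted p = 0.00087), and Top2a (-0.37, adjusted p = 0.0157) and Aurkb (-0.43, adjusted p = 0.0346) fell. Without the block the calls of Col1a1 (0.373), Dcn (0.567), Pcsk2 (0.148), Krt7 (0.137), Top2a (0.641) and Aurkb (0.525) were lost, and that of Dcn was lost in 8 of 15 alternatives. Ctrc had as few as 0 and Cel as few as 6 reads in a library, and their log2 fold changes were as low as 0.87 and 1.97 under the alternatives. Unless stated otherwise, the values in this paragraph in front of an adjusted p are log2 fold changes.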

How the data were processed

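Total RNA (stranded total RNA kit, per the labels) was sequenced in 6 anti-mt-tRF-LeuTAA and 6 anti-control cultures. Per the submitters' processing notes the build was Rnor_6.0 and the tools were edgeR 3.30.3, limma 3.44.3 and R 4.0.3, with HTSeq 0.9.1, STAR 2.5.3a and cutadapt 1.8. What each tool did, and whether counting used strand, is not given in the sources, so reads of overlapping genes on opposite strands may not be separated. The authors deposited log2 CPM values (prior count of 1, scaled library sizes) for 13733 protein-coding genes, beside their own group means, fold changes and p-values, which were not used. Back-transformation gave whole reads in every library, with deviations of at most 5.5e-08 reads, 16.4 to 23.4 M per library. Replicates of a group differed by a chi-square per degree of freedom of at least 19.1, and none was counted as a repeat.

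Groups were compared with limma 3.58.1 in R 4.3.3 (lmFit, eBayes with trend) on the deposited values of all genes, with the replicate number as a block, Benjamini-Hochberg adjustment over all genes and a threshold of 0.05. The replicate numbers come from the labels and the study gives each as the islets of a single rat. The deviations of libraries with the same number from their group means correlated across genes with r of 0.474 to 0.763, and 6 of 6 anti-mt-tRF-LeuTAA and 5 of 6 anti-control libraries correlated best with their own number. The test was made on the deposited log2 values, and the recovered reads entered only limma-voom, an alternative. The script was tested on simulated data. Sums of CPM, ranks, neighbours and correlations are descriptions. Alternatives were a fit without the block, limma without trend, quantile, library-size and median-of-ratios scaling, log2(CPM + 1) and log2(CPM + 0.1), a filter at a mean of 0 log2 CPM, limma-voom on the recovered reads, and leaving out each rat.

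The members and gene lists were chosen with earlier results of these data known. Named were all 10 members, up to 3 called genes with the smallest adjusted p of each list or the most abundant gene where none was called, and the 5 genes (level at or above the 25th percentile) most like the members. Other genes named were chosen after their values were seen, and 1 gene of a list is not reported here. Neighbours are listed genes on the same strand of Rnor_6.0. Promoters are from RefSeq (GRCr8), matched by symbol for 7 of 10 members.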

Additional observations from a re-analysis of the deposited data

Results flagged for a closer look

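Over 57 named genes and 2 groups each, 114 groups of 6 libraries were searched for a single library far from the others, and 6 were found. Chance gives about 1 in 20 groups, so 6 of 114 lies close to the number that chance gives. Among the members, rat 5 stood high in anti-control for Cd68 (5.18 log2 CPM, the next library at 3.00) and for Mrc1 (2.79, the next at 1.88). The same anti-control library was the highest for C1qa, C1qb, C1qc, Csf1r, Aif1 and Tyrobp, without standing apart by this measure. Outside the members, Pdx1 was low in rat 2 after anti-mt-tRF-LeuTAA (6.33 log2 CPM) and Plk1 was low in rat 3 after anti-mt-tRF-LeuTAA (3.67). In anti-control, Cel was high in rat 4 (0.64) and Fscn1, the most abundant of the dendritic cell markers, was low in rat 6 (1.21).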

How the results depend on the processing

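Cd68 and Mrc1 kept their direction and their call in all 15 alternatives run for each, with log2 fold changes of 1.63 to 2.47 for Cd68 and 2.42 to 2.87 for Mrc1. The number of members called lower was 1 (Aif1) and moved to 0 without the replicate block, with library size alone, and over genes with a mean of at least 0 log2 CPM, where Aif1 was filtered out, and to 2 with quantile normalization, which added Tyrobp (log2 fold change -1.19, adjusted p = 0.0357). Leaving out each rat in turn gave 0 to 3 members called lower. At an unadjusted p under 0.05, limma with the block gave 1 lower member. Ptprc turned to 0.0225 on the log2 scale with library size alone and ran from -0.20 to 0.0683 with each rat left out, never near the threshold. Among the genes most like the members, Chst14 turned to -0.00379 with quantile normalization, and Piezo2 turned to 0.0357 with library size alone and ran from -0.11 to 0.0713 with each rat left out.

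Over the 181 other macrophage-related genes, 27 higher and 21 lower calls became 12 and 4 without the replicate block, 21 and 58 with quantile normalization, and 30 and 15 with library size alone. Over the 80 markers of other cell types, 11 higher and 6 lower calls became 6 and 1 without the block. Over all genes, 2412 higher and 2431 lower calls became 1494 and 638 without the block, and lower calls became 1413 with library size alone. The median log2 fold change of all genes lay between -0.07 (quantile) and 0.04 (library size alone). The causes were not tested. Aif1 and Tyrobp, with as few as 3 and 7 reads in a library, are the members that depth limits most.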
